A study of Mus musculus with 3 samples.

Results

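The 10 genes described here, of 32285 in the count matrices, carry out the display of peptides on MHC class I and its supply from outside antigen (cross-presentation). They were chosen by symbol: the class I heavy chains H2-K1 and H2-D1, their light chain B2m, the peptide transporter partners Tap1 and Tap2, the loading factor Tapbp, the trimming peptidase Erap1, the inducible proteasome subunits Psmb8 and Psmb9, and Wdfy4. All 10 were found in the matrices. They were read in dendritic cells grown in vitro with FLT3L, the cytokine that drives dendritic cell development, from wild-type C57BL/6 mice, and profiled by droplet single-cell RNA sequencing with 3' end counting. One library was made from cells grown in 50 µM glutamine, 1 from cells grown in 2 mM glutamine with 1 µM DON, and 1 from control cells grown in 2 mM glutamine alone. DON is an analogue of glutamine that inhibits the enzymes working on it. The 3 libraries share the genotype and FLT3L, and the labels do not give the number, age or sex of the mice. The comparison asks how the class I genes stood when glutamine was scarce or its use was blocked.

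Class I molecules carry peptides from cytosolic proteins to CD8 T cells. The proteasome cuts the proteins, the Tap1 and Tap2 transporter moves the peptides into the endoplasmic reticulum, Erap1 trims them, and Tapbp (tapasin) holds an empty heavy chain and B2m pair at the transporter until a peptide binds. Interferons exchange the constitutive proteasome subunits for inducible ones. Type 1 conventional dendritic cells (cDC1) are the subset best known for cross-presentation, and in mice Wdfy4, a large BEACH-domain protein, is needed there for cross-presentation of cell-associated antigen.

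Of the 10 genes, 7 lie on chromosome 17 (GRCm38, GENCODE vM21), with B2m on chromosome 2, Erap1 on chromosome 13 and Wdfy4 on chromosome 14. Psmb9, Tap1, Psmb8 and Tap2 follow each other within 34335 bases (chr17:34181987-34216321). The following stretches upstream of RefSeq transcription starts (GRCm38.p6) are shown because they are shared between genes whose levels are compared here. H2-K1 (chr17:34000348-34000477, minus strand) and H2-D1 (chr17:35262904-35263093, plus strand) begin alike: 77 of the first 80 bases are equal. The capitals mark a kappaB letter match (GGGNNTTCC) and, 21 bases further on in both, an interferon element read on the opposite strand (GAANNGAAA). The H2-D1 stretch lies inside the GENCODE span of that gene, which starts further upstream.
H2-K1: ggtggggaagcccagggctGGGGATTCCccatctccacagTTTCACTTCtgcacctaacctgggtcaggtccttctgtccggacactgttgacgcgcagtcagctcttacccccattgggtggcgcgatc
H2-D1: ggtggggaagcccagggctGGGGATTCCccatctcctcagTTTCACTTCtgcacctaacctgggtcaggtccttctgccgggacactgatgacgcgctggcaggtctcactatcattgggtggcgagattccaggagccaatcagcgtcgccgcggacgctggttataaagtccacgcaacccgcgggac
Tap1 and Psmb9 point away from each other, with RefSeq starts 226 bases apart. The 225 bases upstream of the Tap1 start (chr17:34187331-34187555, plus strand) therefore also lie upstream of the RefSeq start of Psmb9. This stretch lies inside the GENCODE span of Psmb9, which overlaps that of Tap1 by 212 bases. The capitals mark a Y box core (ATTGG, here on the opposite strand) and a GC box (GGGCGG, on the opposite strand).
Tap1: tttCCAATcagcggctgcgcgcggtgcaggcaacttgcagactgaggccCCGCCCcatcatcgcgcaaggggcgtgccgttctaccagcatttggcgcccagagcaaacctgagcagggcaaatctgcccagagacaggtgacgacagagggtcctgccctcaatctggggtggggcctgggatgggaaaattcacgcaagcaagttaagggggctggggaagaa
Searched on both strands of the window from 250 bases before to 50 after the start, the kappaB letters were in 5.72% of 27025 RefSeq promoters and the interferon element in 7.56%, and 111 promoters (0.411%) held both. The short Y box core and GC box were in 37.9% and 35.9%. A promoter was found for 9 of the 10 genes. Among these 9, the kappaB letters and the interferon element, in exactly the spacing given, matched in H2-K1 and H2-D1 only. Forms with other spacing were not searched, so no match does not mean that such an element is absent. The B2m window holds gaaactgaaa and the Erap1 window tttcactttc, which the letters used do not match. Psmb8 held a gamma-activated site (TTCNNNGAA) 97 bases upstream, a match present in 8.47% of promoters. These are matches of letters and do not show binding.

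The libraries held 92002827 UMIs (unique molecules) at 50 µM, 87611658 with DON and 89340379 in control, and 9169, 8367 and 9473 cells were used in that order, with medians of 7610, 7910 and 6642 UMIs. Cell barcodes shared between libraries numbered 14 to 29, at most 0.347% of the smaller library. Cells were assigned to classes by counting, of 10 marker genes per class, those with a UMI: at least 3, and at least 2 more than for any other class. In each library, 8 classes had at least 50 cells. The cDC1 gate held 137 cells at 50 µM, 361 with DON and 1041 in control, the cDC2 gate (type 2) 1220, 1077 and 1357, the pDC gate (plasmacytoid) 2758, 2712 and 2708, and the mature DC gate 199, 207 and 449. The labels name conventional dendritic cells, and the cultures also held pDCs and cells of other lineages. The other 4 classes were progenitor, monocyte or macrophage, neutrophil and B lineage gates, of 81 to 462 cells. No class was given to 33.2% to 40.2% of cells. The cDC1 gate held the cDC1 receptors Xcr1 at 129, 65.6 and 177 CPM and Clec9a at 120, 77.7 and 91.4 CPM, against at most 1.02 CPM of either in the cDC2 gate. Both are among the 10 markers of the cDC1 gate, so this difference was set in part by the gating. The cDC2 lectin Cd209a was at 103 CPM in the cDC1 gate at 50 µM, against 9.79 CPM with DON and 8.56 CPM in control. At each cell's full depth, 37.2%, 6.65% and 5.38% of the gated cells had a UMI of it.

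To obtain levels, the UMIs of all cells in a class and library were added up and scaled to the class total (CPM). Each carries an exact 95% Poisson interval, which covers counting error only, and not the spread between cultures or mice. Since each group is 1 library, no test between groups could be made. A comparison of 2 classes over the 3 libraries could not go below p = 0.25 in an exact two-sided sign-flip test, so none was run. Genes are counted as apart where the ratio of CPM, with 5 CPM added to each, was at least 1.5 (0.58 on the log2 scale). In each of the 8 classes, all 10 genes passed the filter of 5 CPM in 1 or more of the libraries being compared.

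The genes fell into several profiles across cell classes. The display genes H2-K1, H2-D1, B2m and Tapbp were highest in mature DCs and in monocytes or macrophages, whereas Tap1, Tap2, Psmb9 and Wdfy4 were highest in the cDC1 gate in each of the 3 libraries. Psmb8 was high in both mature DCs and cDC1. Erap1 was low everywhere and the intervals of neighbouring classes overlapped.

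**Figure D1:**
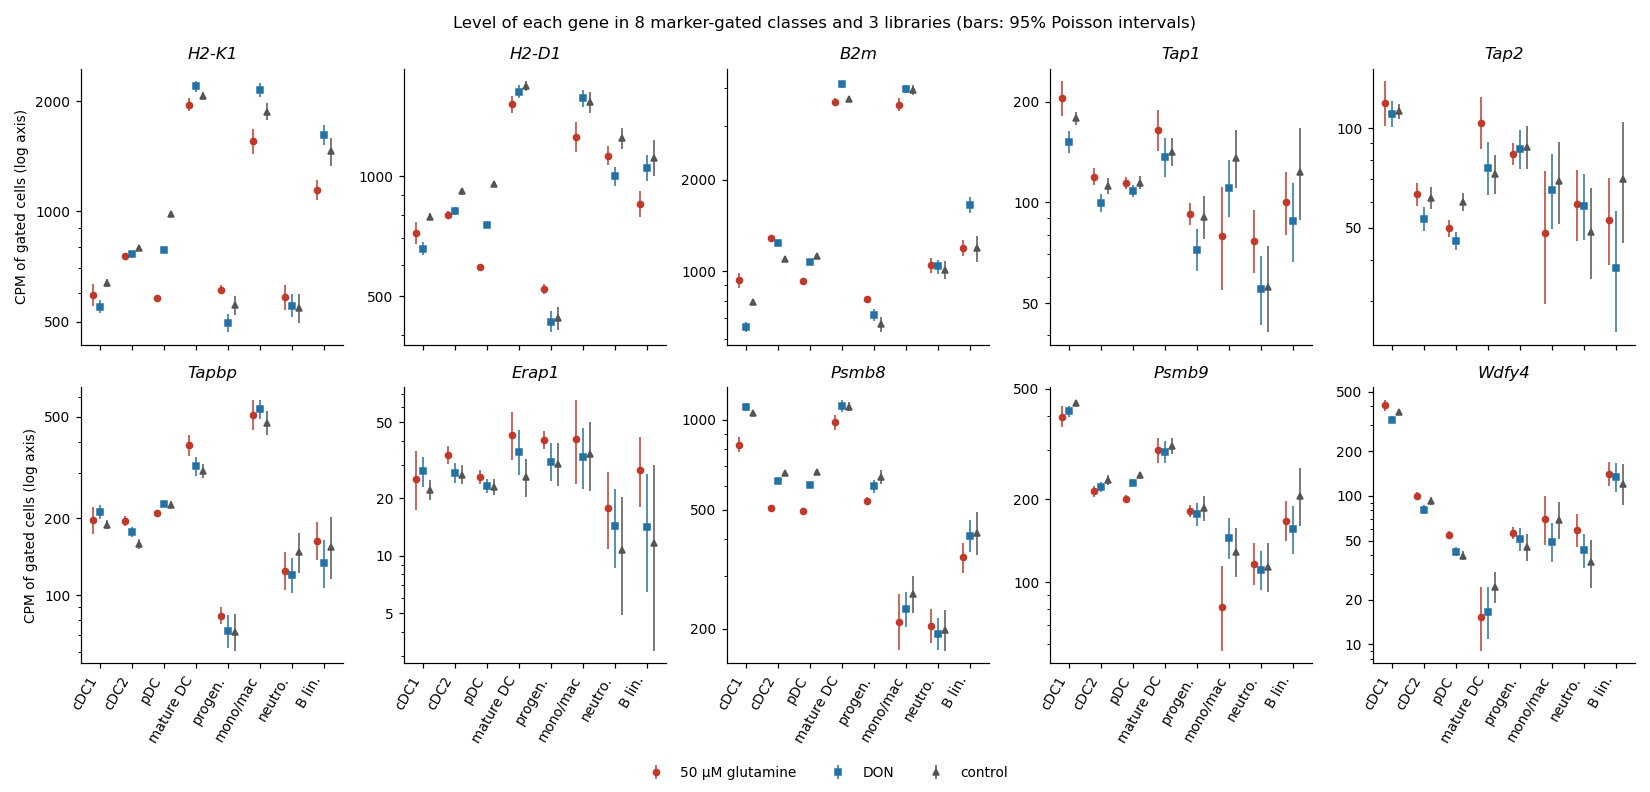
Level of each of the 10 genes (CPM, log axes that differ between panels) in the 8 classes, with circles for 50 µM glutamine, squares for DON and triangles for control; bars are 95% Poisson intervals. H2-K1, H2-D1, B2m and Tapbp peak in mature DC and monocyte or macrophage gates, and Wdfy4, Psmb9, Tap1 and Tap2 in the cDC1 gate.

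Of the molecules that reach the surface, B2m, the light chain shared by all classical class I complexes, stood at 935 CPM at 50 µM, 654 CPM with DON and 790.0 CPM in control in the cDC1 gate. In mature DCs it stood at 3617, 4127 and 3693 CPM, and in monocytes or macrophages at 3538, 3984 and 3959 CPM. The cDC1 gate was thus among the 3 lowest of the 8 classes for B2m in each library, and the lowest of all with DON. H2-K1, a heavy chain that presents peptide to CD8 T cells, stood at 592, 549.6 and 638 CPM in the cDC1 gate, against 1958, 2196 and 2062 CPM in mature DCs. H2-D1, the other classical heavy chain, stood at 722, 659 and 792 CPM in the cDC1 gate, against 1515, 1631 and 1686 CPM in mature DCs. In the cDC2 gate H2-K1 stood at 754, 764 and 795 CPM and H2-D1 at 802, 819 and 917 CPM, both above the cDC1 gate in each library by less than 1.5-fold.

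Tapbp, which steadies the empty heavy chain for loading, was highest in monocytes or macrophages, at 509.9 CPM at 50 µM, 534 CPM with DON and 473 CPM in control, and lowest in progenitors, at 83.3, 72.2 and 71.9 CPM. In the cDC1 gate it stood at 197, 213 and 189 CPM, between the cDC2 gate (195, 177 and 159 CPM) and the pDC gate (209.6, 227 and 227 CPM). The values of these 3 gates lay within 1.5-fold of each other in each library. Erap1, which trims peptides in the endoplasmic reticulum, ranged over the 24 combinations of class and library between 10.7 CPM in control neutrophils and 42.6 CPM in mature DCs at 50 µM. In the cDC1 gate it stood at 25.1, 27.6 and 22.1 CPM, on 34, 124 and 258 UMIs, and its interval overlapped that of the next class in every library.

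The inducible proteasome subunits were high in the cDC1 gate. Psmb8, an inducible catalytic subunit, stood there at 826 CPM at 50 µM, 1105 CPM with DON and 1054 CPM in control, close to mature DCs with 983, 1115 and 1107 CPM. The cDC2 gate had 507, 625 and 667 CPM and the pDC gate 497, 605 and 671 CPM. Psmb9, another inducible catalytic subunit, stood at 398, 416 and 445 CPM in the cDC1 gate, above mature DCs with 299.7, 296 and 312 CPM without overlap of intervals in any library. Monocytes or macrophages, which with mature DCs had the most B2m in each library, had 212, 233 and 262 CPM of Psmb8. Neutrophils had 204, 193 and 198 CPM of Psmb8, in a class where the 10 neutrophil markers summed to 212231, 305155 and 332229 CPM, which lowers the CPM of every other gene.

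Each inducible subunit takes the place of a constitutive one: Psmb8 of Psmb5, Psmb9 of Psmb6 and Psmb10 of Psmb7. Ratios of UMIs were formed within each class and library, with exact binomial intervals. They compare 3' counts of different genes, so their size is read only between classes. Psmb8 over Psmb5 was 4.20 (3.67 to 4.82) at 50 µM, 4.09 (3.84 to 4.36) with DON and 4.43 (4.25 to 4.62) in control in the cDC1 gate. The cDC2 gate had 2.52 (2.39 to 2.66), 2.86 (2.73 to 3.003) and 3.19 (3.04 to 3.34), and progenitors had 1.91, 1.97 and 1.99. Mature DCs were higher than the cDC1 gate, at 7.40 (6.25 to 8.80), 7.95 (6.91 to 9.19) and 8.06 (7.27 to 8.96). Psmb9 over Psmb6 ordered the classes differently, with 2.21, 1.79 and 2.17 in the cDC1 gate and 2.00, 2.04 and 2.14 in mature DCs, whose intervals overlapped in each library. It was 1.15, 1.09 and 1.33 in the cDC2 gate. Psmb10 over Psmb7 was not higher in the cDC1 gate than in the cDC2 gate, at 1.75, 1.44 and 1.75 against 2.07, 2.25 and 2.36. Progenitors had 1.15, 1.13 and 1.22.

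**Figure D2:**
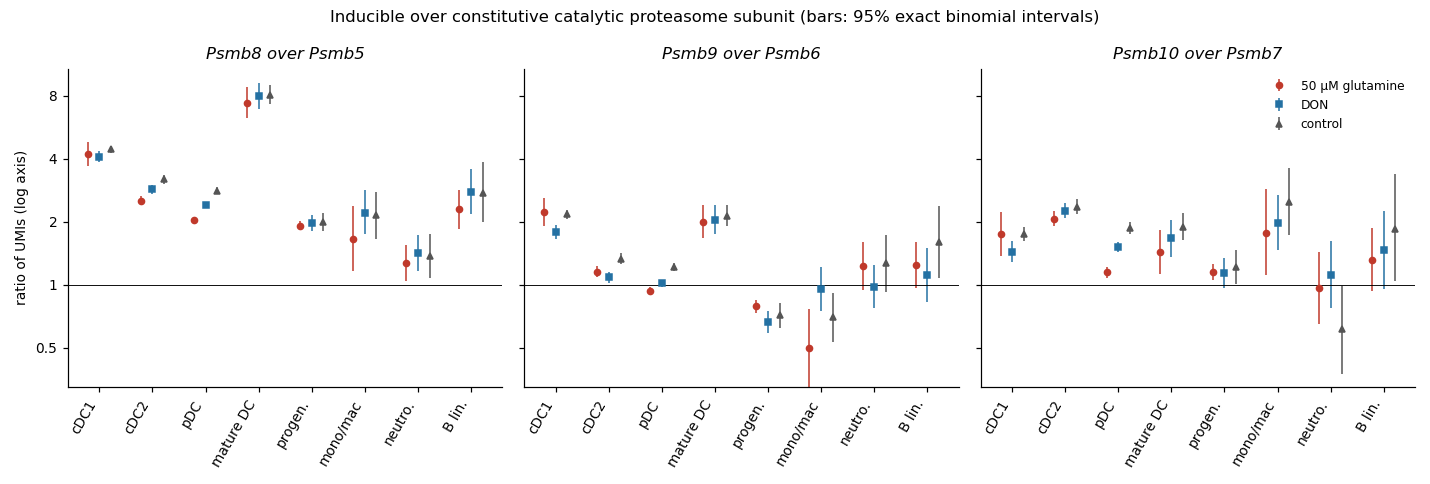
Ratio of UMIs of the inducible to the constitutive subunit (vertical axis) for the 3 proteasome pairs in the 8 classes; symbols mark the libraries and bars exact 95% binomial intervals. Psmb8 over Psmb5 was highest in mature DCs (7.40 to 8.06) and next in the cDC1 gate (4.09 to 4.43), and Psmb10 over Psmb7 in the pDC gate stood at 1.14 at 50 µM, 1.51 with DON and 1.86 in control.

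The transporter genes were also highest in the cDC1 gate. Tap1 stood there at 205 CPM (181 to 230.2) at 50 µM, 152 CPM (141 to 164) with DON and 178 CPM (171 to 186) in control. The next class, mature DCs, had 164, 136 and 141 CPM, and its interval overlapped that of the cDC1 gate at 50 µM and with DON but not in control. Tap2 stood at 119, 110.4 and 112 CPM in the cDC1 gate, against 104, 75.9 and 72.6 CPM in mature DCs and 83.4, 86.4 and 87.8 CPM in progenitors. The interval of the next class overlapped that of the cDC1 gate at 50 µM (mature DCs), and not with DON or in control (progenitors). Tap2 was lower still at 63.2, 53.3 and 61.6 CPM in the cDC2 gate and 49.8, 45.7 and 59.7 CPM in the pDC gate. Tap1 over the cDC2 gate was near the threshold, with log2 ratios of 0.76, 0.59 and 0.65.

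Wdfy4 had the widest range across classes. In the cDC1 gate it stood at 407 CPM (374 to 443) at 50 µM, 326 CPM (309 to 343) with DON and 366 CPM (355 to 377) in control. The B lineage gate came next with 141, 134 and 120.0 CPM, followed by the cDC2 gate with 100.03, 80.6 and 92.1 CPM. Mature DCs were the lowest class, with 15.3, 16.6 and 24.4 CPM on 18, 26 and 72 UMIs. The highest class was therefore 26.6-fold, 19.7-fold and 14.98-fold above the lowest. After thinning every cell to 2000 UMIs, 49.6% of cDC1-gated cells had a Wdfy4 UMI at 50 µM (41.0% to 58.3%, Clopper-Pearson), 47.1% with DON (41.8% to 52.4%) and 50.0% in control (46.9% to 53.1%). Before thinning the shares were 89.8%, 94.7% and 94.4%, at median depths of 8885, 11478 and 9749 UMIs. In mature DCs, the class with the least Wdfy4, the thinned shares were 2.03%, 2.42% and 3.36%, and 4.52%, 7.73% and 8.91% before thinning, at 5716, 6981 and 5959.5 UMIs. The thinned share in the cDC2 gate was 16.7%, 14.0% and 15.9%. Among cDC1-gated cells with no Cd209a UMI, Wdfy4 was at 418, 326 and 366 CPM, and Psmb8 at 837, 1111 and 1058 CPM.

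Set against the other classes, 5 of the 10 genes were at least 1.5-fold higher in the cDC1 gate than in the cDC2 gate in each of the 3 libraries: Tap1, Tap2, Psmb8, Psmb9 and Wdfy4. None was lower. Tap1 did not reach 1.5-fold in each library under 6 of 11 alternative settings, both other scalings among them. Over all 9646 genes compared, 2.77% were higher and 5.87% lower by this rule. The ratio for Wdfy4 was between 3.82-fold and 3.92-fold in the 3 libraries, and for Psmb9 between 1.84-fold and 1.88-fold. Against the pDC gate 4 genes were higher (Tap2, Psmb8, Psmb9 and Wdfy4) and 0 lower, where 5.97% of all genes were higher and 12.3% lower. Against mature DCs only Wdfy4 was higher, by 12.6-fold to 20.3-fold, and H2-K1, H2-D1 and B2m were lower, where 21.5% of all genes were higher and 12.7% lower. B2m was 3.85-fold to 6.27-fold higher in mature DCs than in the cDC1 gate. The counts were 5 higher and 0 lower against progenitors (10.3% and 13% of all genes), 4 and 4 against monocytes or macrophages (7.12% and 22.1%), 5 and 1 against neutrophils (18.1% and 12.5%), and 4 and 1 against the B lineage gate (9.51% and 11.1%).

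**Figure D3:**
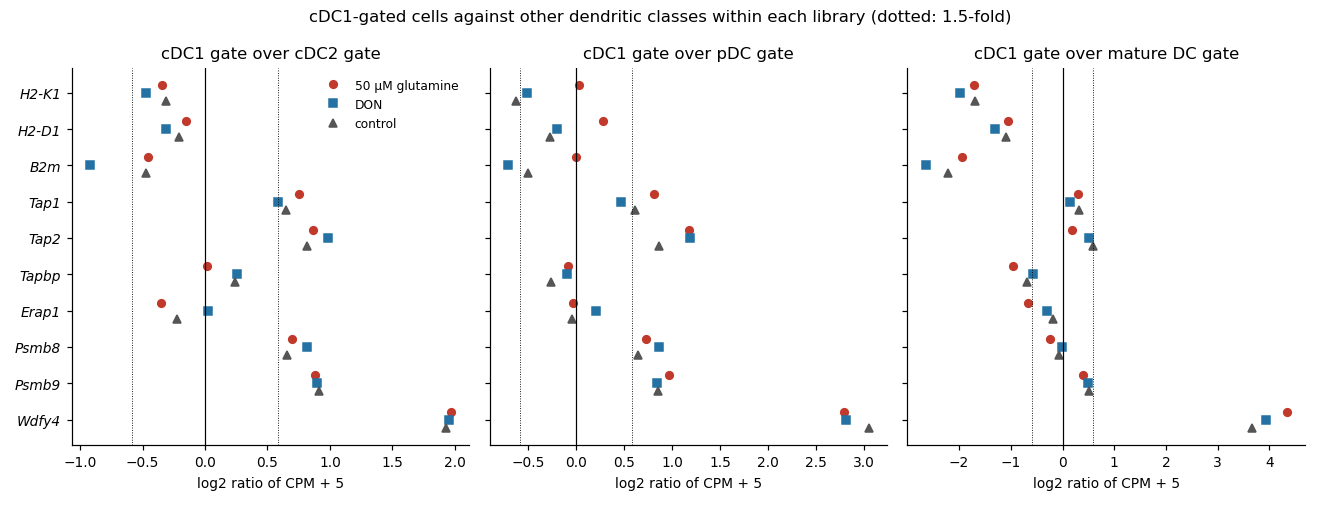
Log2 ratio of the cDC1 gate over the cDC2, pDC and mature DC gates for the 10 genes, 1 symbol per library. Wdfy4 lies at 1.93 or above in each panel, and H2-K1, H2-D1 and B2m lie below -1 against mature DCs.

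In the cDC1 gate the level of the 10 genes moved little with either treatment. None of the 10 was 1.5-fold apart from control at 50 µM, where 3.96% of 8986 genes were higher and 2.16% lower, nor with DON, where 0.923% of 8775 were higher and 1.36% lower. The median log2 ratio of the 10 was 0.07 at 50 µM and -0.13 with DON, beside 0.05 and 0.07 for all genes compared. At 50 µM the gene furthest from control was Psmb8, at 826 CPM against 1054 CPM in control (log2 ratio -0.35, interval -0.44 to -0.26). With DON it was B2m, at 654 CPM against 790.0 CPM in control (-0.27, -0.33 to -0.21), while B2m at 50 µM had a ratio of 0.24 (0.16 to 0.33). H2-K1, H2-D1 and Tap1 had ratios of -0.21, -0.26 and -0.22 with DON. Of the 10 intervals with DON, 6 lay below 0 and 3 above. Wdfy4, at 407 CPM at 50 µM, 326 CPM with DON and 366 CPM in control, had ratios of 0.15 (0.02 to 0.28) and -0.16 (-0.25 to -0.08). Both ratios of a gene share the control library. The difference between the treatments was not tested.

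In the cDC2 gate the picture was similar. None of the 10 genes was 1.5-fold apart at 50 µM, where 4.62% of 9269 genes were higher and 1.33% lower, nor with DON, where 0.2% of 9012 were higher and 0.289% lower. At 50 µM the median ratio of all genes in the cDC2 gate was 0.15 and in the pDC gate 0.13, so ratios there are read against those values. Psmb8 was lower at 50 µM, at 507 CPM against 667 CPM in control (-0.39, -0.45 to -0.34). Tapbp was higher at 50 µM, at 195 CPM against 159 CPM in control (0.28, 0.20 to 0.39). B2m had ratios of 0.23 at 50 µM and 0.18 with DON in the cDC2 gate. The signs of Tap1, Tap2 and Wdfy4 at 50 µM in this gate (0.09, 0.04 and 0.11) turned under median-of-ratios scaling, to -0.03, -0.08 and -0.01.

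**Figure D4:**
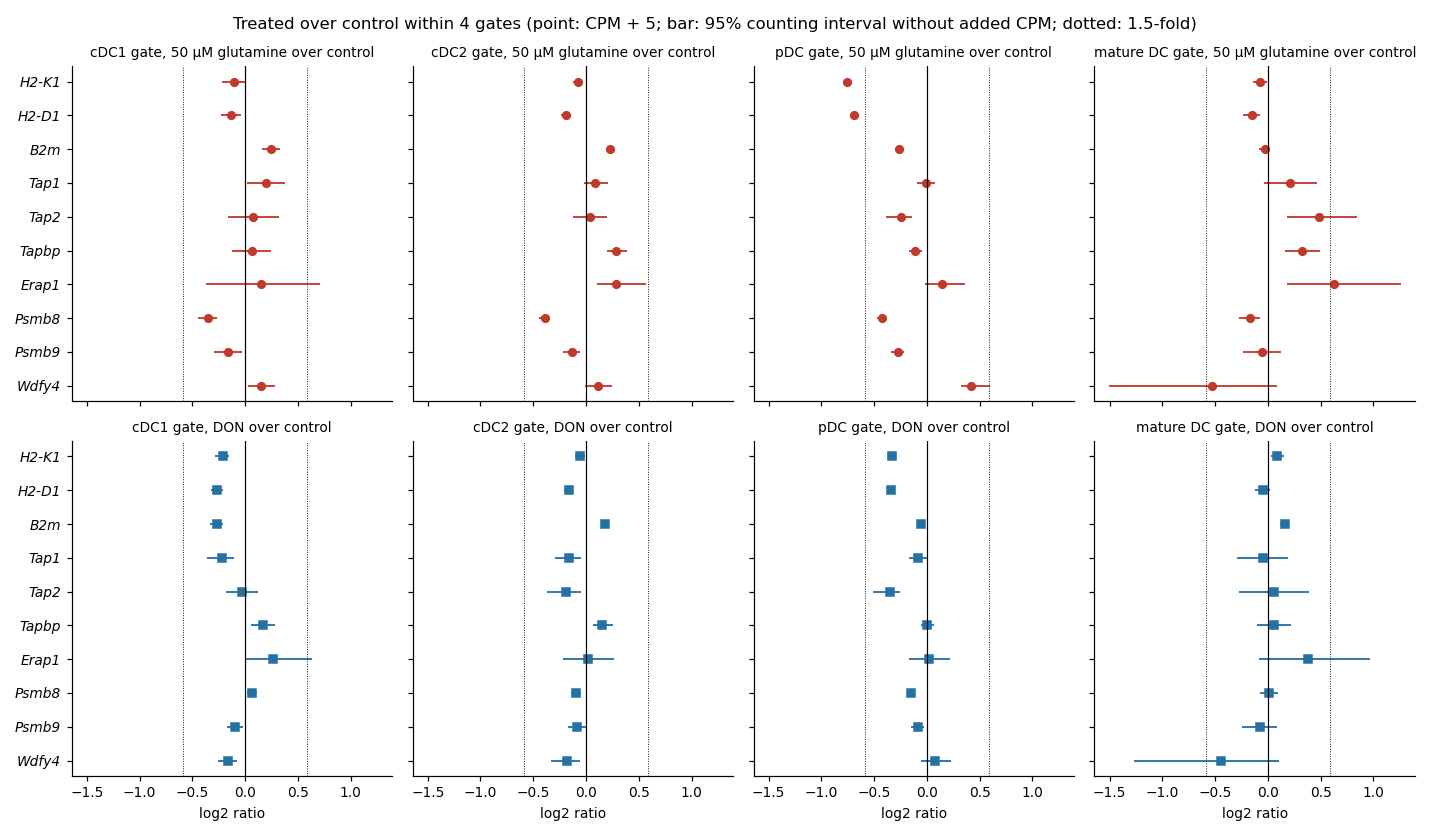
Log2 ratio to control of each of the 10 genes at 50 µM glutamine and with DON in the dendritic gates, with conditional exact 95% intervals. The intervals leave out the 5 CPM added for the ratio. H2-K1 (-0.76) and H2-D1 (-0.69) in the pDC gate at 50 µM lie furthest from 0, followed by Erap1 in mature DCs at 50 µM (0.63), and the cDC1 ratios lie between -0.35 and 0.27.

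The heavy chains stood lowest against control in pDCs. H2-K1 was at 580.2 CPM (570.1 to 590.4) at 50 µM and 783 CPM (771 to 795) with DON, against 986 CPM (971 to 1001) in control. H2-D1 was at 593, 755 and 958 CPM in the same order. For both, the 3 intervals were apart, with DON between 50 µM and control. At 50 µM these were 2 of the 10 genes at least 1.5-fold lower (H2-K1 -0.76, interval -0.80 to -0.73, and H2-D1 -0.69, -0.73 to -0.66), and none was higher, where 3.69% of 9403 genes were lower and 8.41% higher. Relative to the median of all genes the ratios were -0.89 and -0.81. With DON they were -0.33 and -0.34 and 0 of the 10 genes were 1.5-fold apart, where 1.78% of 9174 genes were higher and 0.818% lower. B2m, with which both chains pair, was at 932 CPM at 50 µM, 1074 CPM with DON and 1119 CPM in control, with ratios of -0.26 and -0.06. Psmb8 was at 497, 605 and 671 CPM (-0.43 at 50 µM and -0.15 with DON). Psmb10 over Psmb7 was 1.14 (1.08 to 1.21) at 50 µM, 1.51 (1.43 to 1.60) with DON and 1.86 (1.75 to 1.99) in control. Wdfy4 went the other way, at 54.5 CPM at 50 µM and 42.1 CPM with DON against 39.6 CPM in control (0.41 and 0.08). With doublets kept the Wdfy4 ratios were 0.07 and -0.14.

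The make-up of the pDC gate differed between the libraries. Cells with a UMI of Ccr9, a chemokine receptor of mature pDCs and 1 of the gate's 10 markers, were 40.0% of the gate at 50 µM, 67.5% with DON and 77.9% in control. Cells with UMIs of at least 2 of 8 cycling genes were 48.9%, 32.6% and 17.7% of the gate. These shares were taken without thinning, at median depths of 6775.5, 6731 and 5409.5 UMIs, and depth affects them. The 10 pDC markers summed to 3391 CPM at 50 µM, 3725 CPM with DON and 4292 CPM in control, the 10 cDC2 markers to 326, 461 and 565 CPM, and the 10 progenitor markers to 124, 132 and 43.1 CPM, and their part in the results was not tested. Both heavy chains were lower in the cells without a Ccr9 UMI. H2-K1 stood at 786 CPM at 50 µM, 949 CPM with DON and 1121 CPM in control in cells with a Ccr9 UMI, against 479, 533 and 642 CPM in cells without. H2-D1 stood at 735, 888 and 1075 CPM with a Ccr9 UMI, against 523, 555 and 663 CPM without. Within each subset the ratio at 50 µM was smaller than in the whole gate: -0.51 and -0.42 for H2-K1, and -0.55 and -0.34 for H2-D1, with intervals below 0. No gene of the 10 was 1.5-fold apart in either subset. B2m had ratios of -0.11 with and 0.12 without a Ccr9 UMI. In cells that were not cycling, H2-D1 was 1.5-fold lower at 50 µM (-0.60) and H2-K1 was not (-0.56). The Ccr9 split was chosen after the data were seen.

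**Figure D5:**
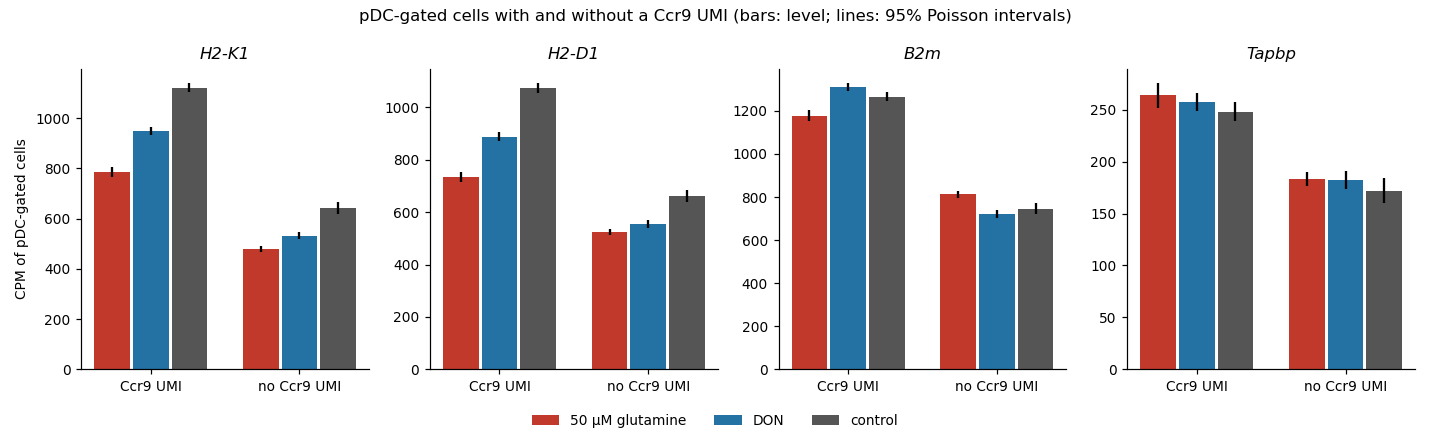
Level (CPM, with 95% Poisson intervals) of class I genes in pDC-gated cells with and without a Ccr9 UMI in the 3 libraries. H2-K1 stands at 786 to 1121 CPM with a Ccr9 UMI and at 479 to 642 CPM without, and in both subsets the order is 50 µM, DON, control from low to high.

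In mature DCs, the class with the most H2-K1 and H2-D1 in each library, H2-K1 had ratios of -0.07 at 50 µM and 0.09 with DON, and B2m -0.03 and 0.16. Erap1 was the only gene of the 10 that was 1.5-fold apart there, higher at 50 µM with 42.6 CPM on 50 UMIs against 25.8 CPM on 76 UMIs in control (0.63, 0.18 to 1.26), where 6.74% of 8857 genes were higher and 6.36% lower. Its ratio was 0.45 with a gate of 2 markers and 0.577 when cells were gated on 2000 UMIs, both short of 1.5-fold. The 10 neutrophil markers summed in the mature DC gate to 1609 CPM at 50 µM, with 7 of 10 at 5 CPM or more and 0 at 0, against 122 CPM with DON and 79.0 CPM in control, with 4 of 10 at 5 CPM or more in either. Erap1 in the neutrophil gate was at 17.9 CPM at 50 µM, below its level in the mature DC gate, and the part of these cells in the result was not tested. With DON 0 of the 10 genes were apart, where 3.16% were higher and 3.36% lower. Tap2 was at 104, 75.9 and 72.6 CPM (0.49 at 50 µM, 0.18 to 0.85). In the 4 other classes 5 values passed 1.5-fold, all on few UMIs. At 50 µM Tap1 and Psmb9 were lower in monocytes or macrophages (-0.74 and -0.62, on 33 and 34 UMIs at 50 µM), where 12.3% of genes were lower. Wdfy4 was higher in neutrophils at 50 µM (0.66, on 66 UMIs against 30 UMIs in control), where 28.8% of genes were higher, and its ratio turned to -0.02 with doublets kept. Erap1 was higher in the B lineage gate at 50 µM (0.99, on 24 UMIs against 4 UMIs in control, interval -0.27 to 3.26), where 24.4% were higher, and Tap2 lower there with DON (-0.82, on 24 UMIs in either library), where 16.9% were lower. In the other direction at 50 µM, 16.8% of genes were higher in monocytes or macrophages, 3.62% lower in neutrophils and 9.22% lower in the B lineage gate. With DON, 11.5% were higher and 6.72% lower in monocytes or macrophages, 13% higher and 5.13% lower in neutrophils, and 13.6% higher in the B lineage gate. In progenitors 0 of the 10 genes were apart, where 4.17% of genes were higher and 2.05% lower at 50 µM, and 2.45% higher and 1.86% lower with DON.

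The genes around the 10 were described from 9 lists of 100 genes in all. In the pDC gate they were read in the whole gate, whose make-up differed between the libraries as given above. The list genes were not split by Ccr9 or by cycling, so the part of that make-up in their ratios was not tested. Of the other class I heavy chains and class I-like genes at 5 CPM or more, 0 were higher and 3 of 8 lower at 50 µM in the pDC gate, with a median of -0.45 beside 0.13 for all genes, of which 8.41% were higher and 3.69% lower. These were H2-T22 (57.5 CPM at 50 µM against 99.4 CPM in control, -0.74), H2-T23 (261 against 409 CPM, -0.64), the ligand of an inhibitory receptor of natural killer cells, and H2-T24 (6.81 against 13.3 CPM, -0.63). H2-T genes resemble each other, so their counts are uncertain. With DON 0 of 7 were apart in either direction (median -0.30). In the cDC1 gate, where 3.96% of all genes were higher and 2.16% lower at 50 µM, 1 of 6 was higher and 0 lower, H2-Q6 (17.7 CPM against 9.67 CPM in control, 0.63), and 0 of 6 were apart with DON. In the cDC2 gate 0 of 7 at 50 µM and 0 of 6 with DON were apart.

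Interferon response genes had 0 higher and 5 of 11 lower in the pDC gate at 50 µM, with a median of -0.49, where 8.41% of all genes were higher and 3.69% lower. Irf7, the factor that drives type I interferon production in pDCs, stood at 61.7 CPM at 50 µM against 132 CPM in control (-1.04). Ifi44 stood at 18.4 against 37.2 CPM (-0.85) and Isg15, a ubiquitin-like modifier, at 59.9 against 111 CPM (-0.84). With DON 1 of 11 was lower, Ifi44 at 22.6 CPM (-0.61), where 0.818% of all genes were lower. In the cDC1 gate 0 of 11 were apart at 50 µM. With DON 2 of 11 were lower there, where 1.36% of all genes were lower. They were Cxcl10, near 0 with DON against 6.07 CPM in control, and Zbp1 (18.7 against 31.0 CPM, -0.60). Cxcl10 passed the 5 CPM filter by its control level alone, so its direction was set by the filter. Of the other inducible proteasome parts, the peptide-loading chaperones, the constitutive catalytic subunits and the remaining core subunits, 0 were 1.5-fold apart in the cDC1, cDC2 or pDC gates with either treatment. The peptidases likewise had 0 of 7 apart in these 3 gates. Psme1, a part of the proteasome activator, stood at 619, 640 and 635 CPM in the cDC1 gate. Nlrc5, the transactivator of class I genes, stood at 22.2, 12.5 and 17.4 CPM there, with ratios of 0.28 and -0.36 that did not reach 1.5-fold. Of 20 cross-presentation genes 0 were apart in the cDC1 gate. In the pDC gate at 50 µM 1 of 20 was higher and 2 lower, where 8.41% of all genes were higher and 3.69% lower. The higher one was Rab27a, a small GTPase of vesicle traffic, at 64.6 CPM against 32.6 CPM in control (0.89). The 2 lower were Cybb, a subunit of the phagosomal NADPH oxidase, at 372 CPM against 585 CPM in control (-0.64), and Sec61b, a part of the endoplasmic reticulum channel, at 783 CPM against 1204 CPM (-0.62). In the cDC2 gate at 50 µM 2 of 20 were higher and 0 lower, where 4.62% of all genes were higher and 1.33% lower. The 2 were Rab27a at 55.3 CPM against 24.04 CPM in control (1.05) and Cybb at 304 CPM against 195 CPM (0.62). With DON 0 of 20 were apart in the cDC2 and pDC gates. Of 12 transcription factors of class I genes, 0 were apart in the cDC1 and cDC2 gates with either treatment. In the pDC gate 1 of 12 was higher at 50 µM and 0 lower, where 8.41% of all genes were higher and 3.69% lower. It was Nfya, a subunit of the factor that binds the Y box, at 63.9 CPM against 35.2 CPM in control (0.78). With DON 0 of these factors were apart in the pDC gate.

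Between classes, where 2.77% of all genes were higher and 5.87% lower, the cross-presentation list had 1 of 20 genes higher in the cDC1 gate than in the cDC2 gate in each library, Rab43, a small GTPase linked to cross-presentation in mouse cDC1, at 259, 207 and 227 CPM against 61.9, 60.5 and 62.6 CPM in the cDC2 gate. Cybb, Rac2 and Syk were lower in each library. Cybb stood at 14.8, 10.9 and 11.7 CPM in the cDC1 gate against 304, 207 and 195 CPM in the cDC2 gate. The interferon response genes had 10 of 16 lower and 0 higher in the cDC1 gate than in the cDC2 gate, where 5.87% of all genes were lower and 2.77% higher, among them Rtp4 at 0, 1.78 and 2.99 CPM against 82.8, 84.8 and 99.5 CPM. Irf1, an activator of class I genes, was lower in the cDC1 gate too, at 31.8, 34.7 and 31.3 CPM against 61.8, 55.7 and 55.8 CPM.

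Across the 24 combinations of class and library, Pearson correlations of log2 CPM among the display genes H2-K1, H2-D1, B2m and Tapbp were between 0.73 and 0.92, and among Tap1, Tap2, Psmb8 and Psmb9 between 0.60 and 0.93. Between a gene of one group and a gene of the other they were between -0.22 (H2-D1 with Psmb8) and 0.45 (Tap1 with Tapbp). Wdfy4 had values between -0.47 and 0.35 with the other 9 genes, and Erap1 between -0.18 and 0.37. Single values were 0.92 for H2-K1 with B2m, 0.79 for H2-K1 with H2-D1, 0.82 for B2m with Tapbp, 0.93 for Psmb8 with Psmb9 and 0.82 for Tap1 with its divergent neighbour Psmb9. H2-K1 with Psmb8 had 0.02 and H2-K1 with Tap1 0.31. Classes recur in 3 libraries and CPM values share a total, so these values describe the profiles and carry no test. Of 8922 genes, those nearest to B2m were Cd274, which encodes an inhibitory ligand of T cells (0.96), Gbp2 (0.94) and Sqstm1 (0.94). For Psmb8 they were Arpp19 (0.94), Psme1 (0.93) and Psmb9 (0.93), for Wdfy4 Unc119b (0.89), BC028528 (0.89) and Hepacam2 (0.84), and for H2-K1 Tmcc3 (0.94), Sbf2 (0.93) and Bmt2 (0.92). For H2-D1 they were Gabarap (0.95), Tmem127 (0.94) and Tprgl (0.92), and for Tapbp Anxa7 (0.95), Gpr137b (0.94) and Itprid2 (0.92). Tap1 was nearest to Phf11b (0.89), Tbca (0.88) and Crip1 (0.87), and Psmb9, after Psmb8, to Psme1 (0.85) and Tbca (0.83). Erap1 was nearest to Polr2l (0.91), Rasa4 (0.88) and Lrrc58 (0.88), and Tap2, with the lowest values, to Atpif1 (0.73), Atp5md (0.70) and Met (0.70).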

How the data were processed

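Single cells of 3 libraries were measured with the 10x Genomics Single Cell 3' v3 chemistry, per the labels' protocols. The authors deposited raw UMI counts per gene and called cell barcode, not normalised. Cell Ranger is given as version 6.0.0 per the file headers and as 3.1.0, beside mm10, per the submitters' processing notes, which leaves the version unsettled. The annotation is not given in the sources used here. Of 32285 gene identifiers, 32158 (99.6%) are in GENCODE vM21 (GRCm38), which gave the positions.

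A barcode needed 1000 UMIs and 500 genes, and no more than 10% of its UMIs from mitochondrial genes. Scrublet in scanpy 1.11.5 (expected rate 0.08, seed 1) marked 4.97% of them as doublets at 50 µM, 5.85% with DON and 8.62% in control, which were removed. Cells were assigned to 10 classes by marker UMIs and their UMIs summed per class and library. Of the 10 classes, 2 had under 50 cells in a library (T, NK or innate lymphoid, and basophil or mast) and were not described. Treated CPM plus 5 was divided by control CPM plus 5 and put on the log2 scale, for genes that reached 5 CPM in either library. Intervals are 95%: exact Poisson for CPM, conditional exact binomial for ratios, and Clopper-Pearson for shares (scipy 1.17.1, Python 3.11.15). The ratio intervals were formed from the counts without the added 5 CPM. For genes at low levels they are therefore not centred on the printed ratio. With 1 library per group there are no p-values. The calculation was tested on simulated data.

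All 10 genes are named in the text, with the up to 3 list members furthest from a ratio of 0, and the 3 genes whose log2 CPM correlates best with each. Of the 100 list genes, 3 symbols (H2-T10, Nrdc and Mx1) were not in the matrices under that name. Other list genes named (Psme1, Nlrc5, Rab43, Rac2, Syk, Rtp4, Irf1 and Cybb between classes) were chosen after their values were seen, and a result of the cross-presentation list is not reported here. The genes and lists were chosen with earlier results of these data known. The windows of 90 bases over the last 500 bases of each of the 10 genes (411 per gene) had 0 that also occur in transcripts of another gene. Tap1 and Psmb9 overlap by 212 bases on opposite strands at their starts, and Tapbp overlaps Zbtb22 by 3422 bases on the same strand, where reads cannot be told apart. The 11 alternatives tried changed the gate, its depth and markers, doublets, minimum depth, added CPM, scaling, cell weight and cycle state. Low-value filters of 20 CPM and none were tried for the shares of all genes.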

Additional observations from a re-analysis of the deposited data

How the results depend on the processing

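Of the counts of genes 1.5-fold apart from control in the cDC1, cDC2 and pDC gates, the one that changed under an alternative was that of the pDC gate at 50 µM: 2 genes, against 1 in cells that were not cycling, 0 in cells with a Ccr9 UMI and 0 in cells without. The Ccr9 subsets, and the recount of class comparisons under all alternatives, were chosen after the data were seen. Of the 5 genes higher in the cDC1 gate than in the cDC2 gate, Tap1 was lost under 6 of 11 alternatives (both other marker rules, gating on 2000 UMIs, doublets kept and both other scalings), and the other 4 were kept under all 11. Against the pDC gate Psmb8 was lost under 1 of 11, in cells that were not cycling. Against mature DCs Tapbp was added to the 3 lower genes under 4 of 11 (gating on 2000 UMIs, 1 CPM added, median-of-ratios scaling and the mean over cells). Of 160 ratios to control, the number that kept their direction was lowest, 137, under median-of-ratios scaling, and 160 with 1 CPM added in place of 5. A called ratio that reversed was Wdfy4 in neutrophils at 50 µM, at -0.40 when cells were gated on 2000 UMIs and -0.018 with doublets kept, on few UMIs in each case, and the cause was not tested. No paired analysis was possible because each group is 1 library. The shares of all genes 1.5-fold apart moved with the filter on low values: in the pDC gate at 50 µM, 4.15% were lower with 20 CPM and 2.09% with no filter, against 3.69%. Depth limits Erap1 and Tap2 in the smaller classes.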

Other observations

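Several class I genes outside the 10 were higher in mature DCs than in the cDC1 gate. H2-M2, a non-classical class I heavy chain, stood at 123 CPM at 50 µM, 195 CPM with DON and 176 CPM in control in mature DCs, against at most 0.228 CPM in the cDC1, cDC2 and pDC gates of any library. H2-Q7 stood at 402, 488 and 447 CPM in mature DCs, against 21.4, 20.5 and 31.3 CPM in the cDC1 gate, and H2-Q6 at 141, 115 and 127 CPM against 17.7, 6.01 and 9.67 CPM. The H2-Q genes resemble each other and their counts are uncertain. Cd1d1, which presents lipids to natural killer T cells, stood at 57.9, 65.7 and 64.8 CPM in mature DCs against 0.739, 0.89 and 1.54 CPM in the cDC1 gate. H2-Q7 and Cd1d1 were also at least 1.5-fold lower in the cDC1 gate than in the pDC gate in each library. Levels of these genes in the classes outside the dendritic gates are not given here. Nlrc5 stood at 67.3, 75.2 and 52.9 CPM in mature DCs and Irf1 at 423, 345 and 379 CPM, each above its level in the 3 other dendritic gates. These genes were chosen after their values were seen.

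Interferon response genes in mature DCs with DON had 5 of 15 at least 1.5-fold higher and 2 lower, with a median log2 ratio of 0.36, where 3.16% of all genes were higher and 3.36% lower. Isg15 stood at 307 CPM with DON against 166 CPM in control (0.87), Cxcl10 at 17.9 against 1.36 CPM (1.85) and Ifit3 at 7.65 against 2.03 CPM (0.85). Cxcl10 and Ifit3, both on few UMIs, passed the 5 CPM filter by their level with DON alone. Their direction was thus set by the filter, and the 5 of 15 and the median include them. In the mature DC gate 11 genes of the list passed the filter at 50 µM and 15 with DON. In the same cells none of the 10 class I genes was 1.5-fold apart, and no test between the libraries was possible.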
